A study of Arabidopsis thaliana with 9 samples.

Results

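Root tips of a pair of Arabidopsis thaliana mutants, seu-3 and wox5-1, were compared directly with each other by RNA sequencing, 3 libraries against 3, out of 9 libraries in the series. The genes compared were those with a mean of at least 1 FPKM (fragments per kilobase of transcript, scaled to the mapped fragments of the library) over these 6 libraries, 16982 of 33560 gene identifiers. The study sampled 5-day-old seedlings of the wild type Col-0, of seu-3 and of wox5-1, grown upright on 1% sucrose under days of 16 h light. The series description puts the tissue taken at about 1 mm, and the extraction protocol puts it at about 3 mm. Both mutants and Col-0 were grown and collected alike per the labels, and no other allele, transgene or treatment is given for these 9 libraries. The labels do not give the lesion of either allele, the number of roots per sample or whether replicates were sown separately, so p-values measure only the spread between these samples.

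SEU (SEUSS) encodes a transcriptional co-regulator without DNA binding of its own that acts in a complex with LEUNIG-type co-repressors. WOX5 encodes a homeobox protein of the quiescent centre, the rarely dividing cells around which the stem cells of the root lie. WOX5 is known for keeping the neighbouring columella stem cells undifferentiated, and SHR (SHORT-ROOT) is known for patterning the ground tissue and maintaining the same niche. Above the niche a root tip holds the dividing cells of the meristem, then cells that elongate, then cells that differentiate and grow hairs.

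The transcripts of the mutated genes were measured in every library. SEU (AT1G43850, chromosome 1, 16616988 to 16622049 in TAIR10.1) was 4.73, 5.22 and 4.19 FPKM in seu-3 and 13.3, 13.3 and 13.00 FPKM in wox5-1. The 3 seu-3 libraries lay below the 3 wox5-1 libraries (log2 difference -1.05, SE 0.11, limma adjusted p = 0.000516), and Col-0 stood at 18.7, 13.3 and 13.2 FPKM. Values are FPKM as deposited, and each log2 difference is seu-3 minus wox5-1 on log2(FPKM + 1) after scaling the libraries to a common median ratio, a scale that understates the difference of weakly expressed genes. WOX5 (AT3G11260, chromosome 3, 3527280 to 3528440) was listed at 0 in the 3 wox5-1 libraries and at 0.0884, 0 and 0 FPKM in seu-3, against 0.301, 0.461 and 0.524 FPKM in Col-0. WOX5 lay below the 1 FPKM threshold and was not distinguishable between the mutants (log2 difference 0.04, exact two-sided permutation p = 1). For SEU the exact two-sided permutation p was 0.1, the smallest that 3 libraries against 3 can give. SEU overlaps another annotated gene, as do PLT3, MP, TPL, CYCD6;1, KN, AUR2, MYB3R1, CDC6, ICU2, ABCB4, TIP2;1, PHR1, FRO3, NRAMP1, RVE1, DIN10, HEI10, AT5G04120, AT5G26270 and AT3G15450 below. Strandedness is not given in the sources used here, so reads of these genes and of their neighbours may be mixed.

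The comparison asks how the transcripts of seu-3 root tips differ from those of wox5-1 root tips. Genes of cell division, DNA replication, ribosomes, vascular patterning and auxin transport were mostly lower in seu-3, and genes of root cap maturation, root hairs, water channels, cellulose synthesis and the phosphate and nitrate lists were mostly higher. Other lists of differentiating tissues did not share this rise. Among them 2 of 10 Casparian strip, 2 of 10 xylem, 1 of 5 phloem, 2 of 9 epidermis fate and 1 of 2 suberin genes were higher. Of these lists only epidermis fate had a lower member, 1 gene. Of 16982 genes, 5236 (30.8%) were higher in seu-3 and 5375 (31.7%) were lower at a limma adjusted p below 0.05, together 10611 (62.5%). By at least 1 log2 unit, 1659 (9.77%) were higher and 2203 (13.0%) lower. The 3 libraries of a genotype did not overlap those of the other for 11986 genes (70.6%). The median difference over all tested genes was -0.01, and the middle of the distribution ran from -1.46 at the 5th percentile to 1.31 at the 95th.

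Without scaling, 3243 genes were higher and 7396 lower, so 30.5% of the called genes were higher in seu-3 in place of 49.3%. Unscaled values shifted the median of all genes by -0.27, and the differences below are relative to the scaled median.

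**Figure D1:**
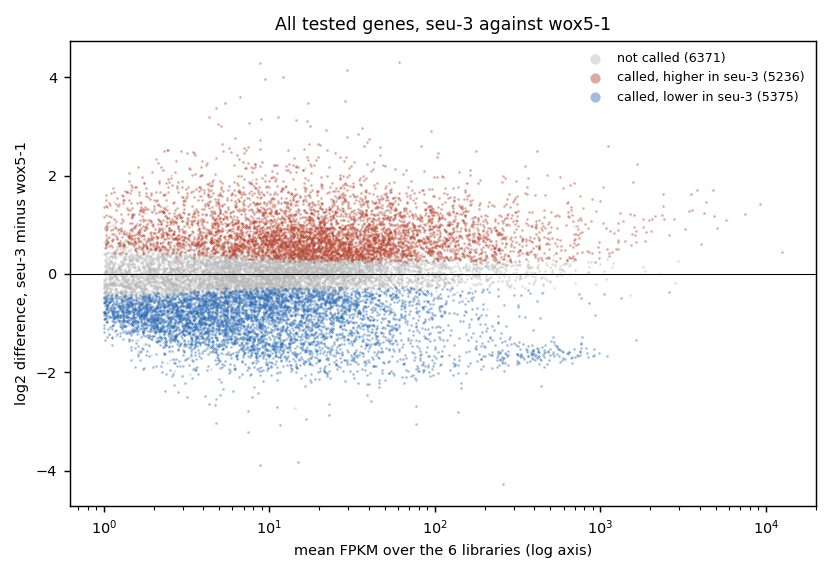
Log2 difference between seu-3 and wox5-1 (vertical axis) against mean FPKM over the 6 libraries (horizontal log axis), 1 point per tested gene, coloured by call at an adjusted p below 0.05. Calls in both directions fill the plot, 5236 above 0 and 5375 below, and the band of abundant genes near -1.6 includes the ribosomal protein genes.

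The direction of the difference varied with abundance. Among the 8124 genes with a mean of 1 to 10 FPKM, 19.5% were higher in seu-3 and 37.9% were lower. Among the 74 genes with at least 1000 FPKM, 58 (78.4%) were higher and 5 (6.76%) were lower. The intermediate classes of 10 to 100 and 100 to 1000 FPKM had 39.3% and 49.7% higher. The threshold of 1 FPKM ran between AT1G13040 and AER, just above it with log2 differences of -0.77 and -0.29, and PME44 and AT1G15885, just below it.

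Of 505 genes on 37 lists of pathways and cell types, 418 were tested, and 142 of them were higher in seu-3 and 140 lower. Read against the 30.8% and 31.7% of all genes, the total is near the background, while single lists lay far to either side of it. The lists and members were chosen with earlier results of these data known, so these distances from the background are a description.

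**Figure D2:**
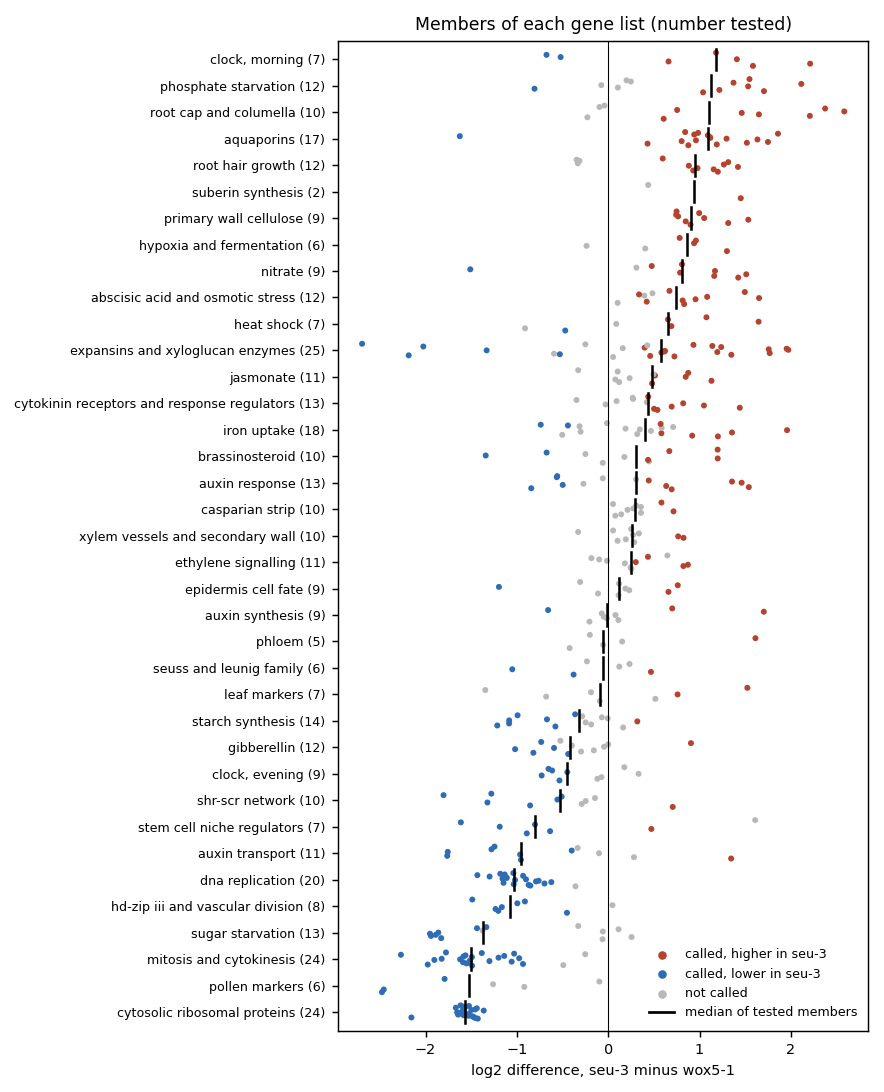
Log2 difference between seu-3 and wox5-1 (horizontal axis) of every tested member of each of the 37 gene lists (rows, ordered by median, number tested in brackets), with the median as a bar. Ribosomal, mitosis and replication genes lie to the left of 0, and aquaporin and cellulose genes lie to the right apart from 1 aquaporin.

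Genes of mitosis and cytokinesis were lower in seu-3 in 22 of 24 tested members and higher in 0, with a median of -1.5. Cyclin CYCB1;2 (AT5G06150), which drives entry into mitosis, was 3.71, 3.92 and 1.65 FPKM in seu-3 and 18.4, 15.8 and 15.6 FPKM in wox5-1. The groups did not overlap, replicate 3 was the lowest seu-3 library, and Col-0 lay between them at 8.26, 9.22 and 12.2 FPKM (log2 difference -1.9, SE 0.23, limma adjusted p = 0.000784). CYCB2;4, another mitotic cyclin, was 2.04, 1.699 and 1.06 FPKM in seu-3 and 7.76, 8.11 and 8.13 FPKM in wox5-1, a 4.08-fold difference after scaling (log2 difference -1.59, SE 0.16, limma adjusted p = 0.000532). The cytokinesis syntaxin KN, named after its value was seen, had a log2 difference of -2.27. The Aurora kinase AUR2 and the transcription factor MYB3R1 did not pass, at -0.49 and -0.25. In bulk tissue fewer dividing cells and less of these transcripts per cell cannot be told apart.

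Replication genes were lower in 19 of 20 tested members and higher in 0, with a median of -1.03. The helicase subunit MCM6 was 1.65, 2.15 and 1.09 FPKM in seu-3 and 6.47, 4.65 and 5.61 FPKM in wox5-1, with no overlap (log2 difference -1.12, SE 0.19, limma adjusted p = 0.00185). The licensing factor CDT1A differed less, at 9.89, 11.7 and 7.48 against 23.3, 21.8 and 21.4 FPKM (log2 difference -0.85, SE 0.14, limma adjusted p = 0.00182). CDC6, also of origin licensing, did not pass at -0.36.

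All 24 cytosolic ribosomal protein genes on the list were lower in seu-3, between -2.16 and -1.36 with a median of -1.57. RPL28A (AT2G19730) was 412, 470.2 and 261 FPKM in seu-3 and 1774, 1260.5 and 1304 FPKM in wox5-1, and Col-0 held 720.1, 729 and 845 FPKM. The lowest wox5-1 library lay more than 2-fold above the highest seu-3 library (log2 difference -1.64, SE 0.22, limma adjusted p = 0.00101). Together the 24 genes made up 0.647, 0.808 and 0.426% of the summed FPKM of the seu-3 libraries, 2.62, 1.88 and 1.97% of the wox5-1 libraries and 1.29, 1.29 and 1.39% of the Col-0 libraries. Many ribosomal proteins are encoded by near-identical paralogs, so the split of fragments among them is uncertain.

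The upstream sequences of these groups are known for short motifs, which are shown as background. Members that passed were not compared with members that did not, so the shares do not bear on the difference between the mutants. In the 250 bases before the annotated gene start, on either strand, the letters AACGG, the core of the mitosis-specific activator element, were found in 15 of 24 mitosis genes (62.5%) and in 21.9% of the upstream regions of 16885 tested genes. The E2F-type letters TTTCCCGC were found in 6 of 20 replication genes (30%) against 0.598%, and TTTGGCGC in 4 of 20 (20%) against 0.373%. TGGGCC, part of a TCP-type element, was found in 13 of 24 ribosomal protein genes (54.2%) against 17.2%, and the telobox letters AAACCCTA in 4 of 24 (16.7%) against 3.56%. A match is a description of the letters in this window and not a binding site. For each group, and for the evening clock genes treated below, the called member with the most matches in a window free of other genes is printed 5′ to 3′ on the strand of the gene, from the TAIR10.1 genome of RefSeq, with the matches in capitals. The window of CYCB1;2 is chr5:1861704-1861953 on the minus strand with 4 AACGG matches. That of ICU2, a DNA polymerase subunit, is chr5:26776703-26776952 on the plus strand with 1 match to each E2F-type motif. That of RPL4A is chr3:2953443-2953692 on the plus strand with 3 TGGGCC matches. That of TOC1 is chr5:24674713-24674962 on the plus strand with 1 evening element, AAAATATCT.
CYCB1;2: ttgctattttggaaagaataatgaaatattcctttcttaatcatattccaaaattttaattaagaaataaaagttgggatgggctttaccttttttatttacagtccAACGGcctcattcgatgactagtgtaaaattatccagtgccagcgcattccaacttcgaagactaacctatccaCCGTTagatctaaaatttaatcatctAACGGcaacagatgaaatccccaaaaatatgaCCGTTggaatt
ICU2: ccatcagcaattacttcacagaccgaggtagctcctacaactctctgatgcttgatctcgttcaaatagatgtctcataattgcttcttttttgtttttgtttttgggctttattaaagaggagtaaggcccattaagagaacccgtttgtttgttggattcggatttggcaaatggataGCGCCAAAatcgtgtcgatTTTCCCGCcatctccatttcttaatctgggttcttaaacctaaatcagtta
RPL4A: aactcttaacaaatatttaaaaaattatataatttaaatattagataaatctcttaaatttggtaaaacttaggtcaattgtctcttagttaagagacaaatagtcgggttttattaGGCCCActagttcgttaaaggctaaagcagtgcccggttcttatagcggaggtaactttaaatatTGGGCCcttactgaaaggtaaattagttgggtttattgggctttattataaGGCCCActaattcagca
TOC1: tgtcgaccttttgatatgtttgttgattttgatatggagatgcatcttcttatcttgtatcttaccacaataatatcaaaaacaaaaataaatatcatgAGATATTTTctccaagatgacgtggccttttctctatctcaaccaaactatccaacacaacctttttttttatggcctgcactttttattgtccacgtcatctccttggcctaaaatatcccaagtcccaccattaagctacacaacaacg
In these 6 libraries ICU2 was 1.36, 1.899 and 0.827 FPKM in seu-3 and 3.44, 3.76 and 3.36 FPKM in wox5-1 (log2 difference -0.76, SE 0.18, limma adjusted p = 0.00801). RPL4A was 172, 227 and 112 FPKM in seu-3 and 807, 556 and 579.8 FPKM in wox5-1 (log2 difference -1.66, SE 0.24, limma adjusted p = 0.00128). The 3 seu-3 libraries were below the 3 wox5-1 libraries for both genes.

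**Figure D3:**
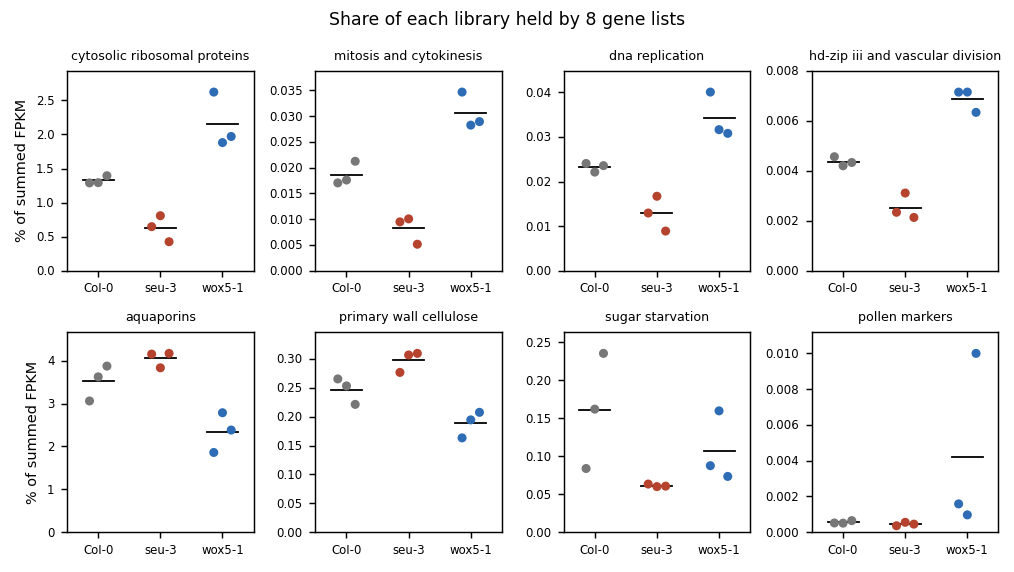
Percent of the summed FPKM of each library (vertical axes, from 0) held by the genes of 8 lists in Col-0, seu-3 and wox5-1, with points for libraries and bars for group means. Division, replication, ribosomal and vascular shares are highest in wox5-1 and lowest in seu-3, aquaporin and cellulose shares are highest in seu-3 on average, and wox5-1 replicate 3 stands apart in the pollen markers.

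Regulators of the ground tissue were lower in seu-3 in 6 of 10 tested members of the SHR-SCR network, with a median of -0.53. Leaving out 1 library gave 4 to 7 lower members. SHR (AT4G37650) was 2.57, 3.598 and 1.88 FPKM in seu-3 and 16.1, 13.4 and 12.7 FPKM in wox5-1, against 7.13, 8.599 and 8.15 FPKM in Col-0. The 2 mutants lay on opposite sides of Col-0 with no overlap, 4.29-fold apart after scaling (log2 difference -1.8, SE 0.18, limma adjusted p = 0.0004902). Its partner SCR was 15.2, 23.1 and 13.1 FPKM in seu-3 and 31.6, 28.4 and 29.1 FPKM in wox5-1, a smaller difference that also passed (log2 difference -0.51, SE 0.18, limma adjusted p = 0.0353). MGP and IDD4, zinc finger proteins of the same network, had log2 differences of -1.32 and -0.86, and JKD did not pass at -0.29. The cyclin CYCD6;1 alone was higher in seu-3 (0.71). Its call did not hold without scaling or without seu-3 replicate 2 or wox5-1 replicate 1 or 2. CYCD6;1 fell below the filter, and was not tested, with a mean of at least 5 FPKM and without seu-3 replicate 3.

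Of 16 regulators of the stem cell niche, 7 reached the 1 FPKM threshold. The AP2-type factor PLT3 was 2.36, 3.604 and 2.33 FPKM in seu-3 and 15.2, 11.5 and 11.3 FPKM in wox5-1, against 7.305, 10.1 and 10.7 FPKM in Col-0 (log2 difference -1.61, SE 0.17, limma adjusted p = 0.000576). PLT1, which with its relatives sets the extent of the meristem, was 0.394, 0.325 and 0.178 FPKM in seu-3 and 2.35, 1.37 and 3.28 FPKM in wox5-1 (log2 difference -1.19, SE 0.23, limma adjusted p = 0.00348). Neither group overlapped the other for these 2 genes. PLT2 and BBM, of the same family, had log2 differences of -0.8 and -0.89. PLT1, PLT2 and BBM reached the threshold only through wox5-1, so that the filter bears on the direction of their differences, which are given as a description. PLT2 and BBM were not tested without any 1 wox5-1 replicate, nor PLT1 without replicate 3, because they then lay below the filter. MP, an auxin response factor, was higher in seu-3 (0.47), but its call did not hold without scaling, without a filter, or without seu-3 replicate 1 or 3 or wox5-1 replicate 1 or 2, where its adjusted p ran from 0.0565 to 0.232. The co-repressor TPL had 48.6 and 45.6 FPKM in wox5-1 replicates 2 and 3 but was listed at 0 in replicate 1. Its difference of 1.61 did not pass, and the size of that difference rests on this 0. All 16 genes of the list, TPL included, together summed to 43.7, 46.7 and 43.2 FPKM in seu-3.

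In the vascular group, 7 of 8 tested HD-ZIP III factors and division regulators were lower in seu-3, with a median of -1.08. PHB, a HD-ZIP III factor of xylem patterning, was 2.19, 2.51 and 2.06 FPKM in seu-3 and 8.05, 7.66 and 7.08 FPKM in wox5-1 (log2 difference -1.17, SE 0.12, limma adjusted p = 0.000525). TMO5 and LHW encode bHLH partners that promote divisions of vascular cells. TMO5 was 0.438, 1.18 and 0.477 FPKM in seu-3 and 4.49, 4.19 and 4.201 FPKM in wox5-1 (log2 difference -1.49, SE 0.19, limma adjusted p = 0.000903). TMO5 reached the threshold only through wox5-1, so that the filter bears on its direction, which is given as a description. LHW was 3.39, 5.796 and 4.17 FPKM in seu-3 and 15.95, 14.6 and 12.2 FPKM in wox5-1 (log2 difference -1.23, SE 0.18, limma adjusted p = 0.001203). All 3 genes had Col-0 between the mutants and no overlap between seu-3 and wox5-1. PHV, a close relative of PHB, did not differ detectably at 0.05.

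Auxin transport genes were lower in 7 of 11 tested members and higher in 1, with a median of -0.96. The exporter PIN7 was 6.64, 7.84 and 4.66 FPKM in seu-3 and 19.4, 18.7 and 21.4 FPKM in wox5-1 (log2 difference -1.25, SE 0.16, limma adjusted p = 0.000907). PIN3, an exporter of the columella and stele, was 4.97, 5.66 and 3.34 FPKM in seu-3 and 17.1, 13.1 and 15.7 FPKM in wox5-1 (log2 difference -1.28, SE 0.17, limma adjusted p = 0.00107). Both were low in all 3 seu-3 libraries and intermediate in Col-0, at 11.8, 12.4 and 10.7 FPKM for PIN7 and 8.49, 7.96 and 7.98 FPKM for PIN3. The importer LAX2 had a log2 difference of -1.76. ABCB4, a transporter of the epidermis, was the member that was higher, at 167, 168 and 188 against 69.1, 82.6 and 103 FPKM (log2 difference 1.35, SE 0.16, limma adjusted p = 0.000747). Without wox5-1 replicate 3, 2 members were higher. AUX1, the main importer of root cap and epidermis, did not pass at 0.28.

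**Figure D4:**
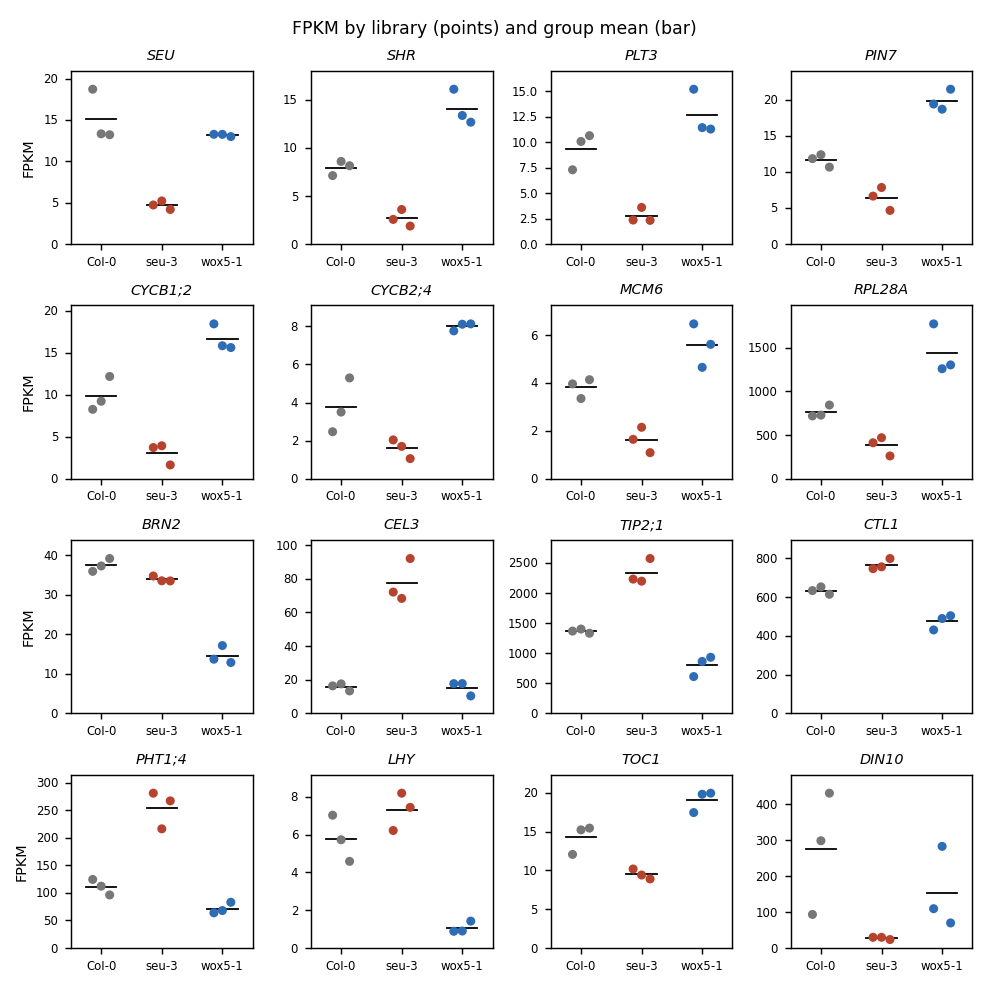
FPKM as deposited (vertical axes, from 0) of 16 genes in each Col-0, seu-3 and wox5-1 library (points), with group means (bars). SEU is low in seu-3 alone, SHR to RPL28A step down from wox5-1 to Col-0 to seu-3, CEL3 is high in seu-3 alone, BRN2 and LHY are low in wox5-1 alone, and DIN10 is spread widely in Col-0 and wox5-1.

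Root cap genes went the other way, with 7 of 10 tested members higher in seu-3 and 0 lower, and a median of 1.11. The cellulase CEL3 (AT1G71380) was 72.1, 68.3 and 92.01 FPKM in seu-3 and 17.7, 17.7 and 10.4 FPKM in wox5-1, and Col-0 held 16.4, 17.5 and 13.4 FPKM. The seu-3 libraries stood 6.29-fold above wox5-1 after scaling, and the Col-0 and wox5-1 libraries overlapped (log2 difference 2.59, SE 0.22, limma adjusted p = 0.000351). The nuclease BFN1, of dying cap cells, was 21.2, 15.7 and 15.6 FPKM in seu-3 and 2.59, 4.57 and 4.39 FPKM in wox5-1 (log2 difference 2.21, SE 0.20, limma adjusted p = 0.000409). For the NAC factor BRN2, which drives maturation and release of cap cells, the pattern differed. BRN2 was 34.8, 33.6 and 33.6 FPKM in seu-3, 13.7, 17.2 and 12.9 FPKM in wox5-1 and 35.98, 37.3 and 39.2 FPKM in Col-0, so seu-3 lay close to Col-0 and wox5-1 well below both (log2 difference 1.46, SE 0.12, limma adjusted p = 0.0003097). Its relative BRN1 had a log2 difference of 1.65, and the NAC factor SMB did not pass at -0.1. Without scaling 6 members were higher and 1 was lower.

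Of 12 root hair genes, 9 were higher in seu-3 and 0 lower, with a median of 0.95. RHD2, the NADPH oxidase of the hair tip, was 125, 116 and 140.2 FPKM in seu-3 and 49.2, 65.5 and 82.4 FPKM in wox5-1 (log2 difference 1.27, SE 0.19, limma adjusted p = 0.00142). LRX2, a wall protein of hairs, was 139, 139 and 176 FPKM in seu-3 and 55.9, 60.2 and 95.9 FPKM in wox5-1 (log2 difference 1.42, SE 0.22, limma adjusted p = 0.00155). The groups did not overlap for either gene. The transcription factors RHD6, RSL1 and RSL2, which act before hair growth, did not pass and had log2 differences of -0.33, -0.32 and -0.35. Without scaling, and without wox5-1 replicate 1, 2 members were lower.

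Water channels were higher in 16 of 17 tested members and lower in 1, with a median of 1.09, or 9 higher after quantile normalization. The tonoplast channel TIP2;1 (AT3G16240) was 2232, 2198 and 2574 FPKM in seu-3 and 613, 864 and 933 FPKM in wox5-1, with Col-0 between them at 1368, 1402 and 1332 FPKM (log2 difference 1.86, SE 0.18, limma adjusted p = 0.0004698). The plasma membrane channel PIP1;5 was 852, 850.1 and 903 FPKM in seu-3 and 246, 392 and 332 FPKM in wox5-1 (log2 difference 1.75, SE 0.17, limma adjusted p = 0.000457). PIP2;8 was the lower member, at 0.509, 1.02 and 0 against 5.34, 2.19 and 5.03 FPKM (log2 difference -1.63, SE 0.35, limma adjusted p = 0.00493). PIP2;8 reached the threshold only through wox5-1, and its direction is given as a description. The 18 listed genes made up 4.16, 3.84 and 4.18% of the summed FPKM in seu-3 and 1.86, 2.79 and 2.38% in wox5-1. TIP2;1 and PIP1;5 are abundant, and abundant genes were more often higher in seu-3. The share was 49.7% of all tested genes at 100 to 1000 FPKM and 78.4% at 1000 FPKM or more. Channels of one subfamily are close in sequence, so their individual values are uncertain.

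Genes of primary wall cellulose synthesis were higher in seu-3 in all 9 members, with a median of 0.90, also without scaling and after quantile normalization. The chitinase-like protein CTL1, needed for cellulose assembly, was 747, 757 and 799 FPKM in seu-3 and 431, 489.7 and 504 FPKM in wox5-1 (log2 difference 1.0, SE 0.11, limma adjusted p = 0.000631). The synthase subunit CESA5 was 45.6, 57.4 and 57.4 FPKM in seu-3 and 18.8, 19.3 and 28.9 FPKM in wox5-1 (log2 difference 1.53, SE 0.19, limma adjusted p = 0.000816). Every seu-3 library exceeded every wox5-1 library for both genes. CTL1 lies in the class of 100 to 1000 FPKM, in which 49.7% of all tested genes were higher in seu-3.

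Expansins and xyloglucan enzymes, which loosen and remodel the wall, split: 15 of 25 were higher and 5 lower, or 9 and 7 without scaling. XTH17 was 871, 729 and 1005 FPKM in seu-3 and 221, 256 and 347 FPKM in wox5-1 (log2 difference 1.97, SE 0.21, limma adjusted p = 0.000545). XTH9 was 2.94, 2.21 and 0.653 FPKM in seu-3 and 24.99, 16.1 and 19.7 FPKM in wox5-1 (log2 difference -2.7, SE 0.32, limma adjusted p = 0.000771). These 2 members of 1 family thus differed in opposite directions, with no overlap between the mutants for either. EXPA15 was lower in seu-3 with a difference of -2.19, and EXPA17 was higher with 1.35.

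Among phosphate genes 7 of 12 tested members were higher in seu-3 and 1 was lower, with a median of 1.13. The transporter PHT1;4 (AT2G38940) was 281, 216 and 267 FPKM in seu-3 and 63.9, 68.02 and 83.05 FPKM in wox5-1, against 124, 112 and 96.3 FPKM in Col-0 (log2 difference 2.11, SE 0.16, limma adjusted p = 0.000242). PHT1;1 and the galactolipid synthase MGD3 had differences of 1.53 and 1.71. The lower member was PHO1, which loads phosphate into the xylem, at 7.11, 6.26 and 3.78 against 10.4, 14.5 and 13.9 FPKM (log2 difference -0.81, SE 0.21, limma adjusted p = 0.0108). SPX1 and PHR1, sensor and regulator of the phosphate response, did not pass. The letters GNATATNC, the element bound by PHR1, were found upstream of 2 of the 12 genes (16.7%) and of 5.37% of all tested genes.

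Nitrate genes were higher in 7 of 9 tested members and lower in 1, with a median of 0.81. The nitrite reductase NIR1 was 169, 195 and 186 FPKM in seu-3 and 72.97, 73.4 and 89.96 FPKM in wox5-1 (log2 difference 1.51, SE 0.12, limma adjusted p = 0.000299). The lower member was the high-affinity transporter NRT2.1, at 0.158, 0.371 and 0.149 against 2.56, 3.47 and 2.52 FPKM (log2 difference -1.51, SE 0.17, limma adjusted p = 0.000621). NRT2.1 reached the threshold only through wox5-1, so that the filter bears on its direction, which is given as a description. The transporter NRT1.1 was higher, at 87.1, 80.8 and 80.4 against 35.9, 50.7 and 49.1 FPKM (log2 difference 1.17, SE 0.14, limma adjusted p = 0.000791). Col-0 held 2.86, 4.97 and 6.94 FPKM of NRT2.1.

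Of 18 iron genes 6 were higher, a share near the 30.8% of all tested genes, and 2, NRAMP1 and NAS4, were lower. The NAS4 call did not hold with all 9 libraries, with quantile normalization, or without seu-3 replicate 1 or 3 or wox5-1 replicate 1 or 3. FIT, the transcription factor of iron acquisition, was 115, 101 and 95.1 FPKM in seu-3 and 39.8, 57.1 and 52.1 FPKM in wox5-1, and Col-0 was near seu-3 at 108, 99.6 and 97.8 FPKM (log2 difference 1.36, SE 0.15, limma adjusted p = 0.0005796). The reductase FRO3 had a difference of 1.96, while the uptake genes IRT1 and FRO2 did not pass, at 0.35 and 0.47. Of 12 genes of abscisic acid and osmotic stress, 9 were higher and 0 lower, or 6 higher without scaling. RD29A, a dehydration-induced gene, was 37.6, 45.8 and 37.8 FPKM in seu-3 and 15.7, 19.4 and 15.8 FPKM in wox5-1 (log2 difference 1.5, SE 0.12, limma adjusted p = 0.000265). In hypoxia 4 of 6 were higher, among them the haemoglobin HB1 with 1.3 and the pyruvate decarboxylase PDC1 with 0.96.

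Circadian clock genes were grouped by the time of day at which they peak. Of 7 morning genes, 5 were higher and 2 lower in seu-3. LHY (AT1G01060), a morning transcription factor of the clock, was 6.22, 8.19 and 7.44 FPKM in seu-3 and 0.888, 0.901 and 1.43 FPKM in wox5-1, with Col-0 at 7.03, 5.73 and 4.59 FPKM (log2 difference 2.21, SE 0.16, limma adjusted p = 0.000218). CCA1, its partner, was 3.17, 3.17 and 2.87 FPKM in seu-3 and 0.528, 0.2598 and 0.8203 FPKM in wox5-1 (log2 difference 1.58, SE 0.17, limma adjusted p = 0.000573). Both were low in the 3 wox5-1 libraries, where Col-0 and seu-3 stood several-fold higher. CCA1 reached the threshold only through seu-3, and its direction is given as a description. The lower members were RVE1 and PRR7, with -0.68 and -0.52, and 1 member was lower without seu-3 replicate 3 or wox5-1 replicate 3. Neither call held after quantile normalization, where RVE1 and PRR7 had log2 differences of -0.42 and -0.29. Of 9 evening genes, 5 were lower and 0 higher, with a median of -0.45. TOC1, an evening repressor of LHY and CCA1, was 10.2, 9.41 and 8.91 FPKM in seu-3 and 17.5, 19.8 and 19.96 FPKM in wox5-1 (log2 difference -0.65, SE 0.11, limma adjusted p = 0.00181), and PRR5 had a difference of -0.61. The evening element printed above for TOC1 was found in 5 of the 9 evening genes (55.6%) and in 2.39% of all tested genes. The labels give no hour of collection.

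Genes induced by sugar starvation and darkness were lower in 7 of 13 tested members, and their values varied between libraries of a genotype. DIN10, a raffinose synthase-like gene, was 29.9, 29.9 and 23.7 FPKM in seu-3, 109, 282 and 69.8 FPKM in wox5-1 and 93.4, 298 and 430.1 FPKM in Col-0. The seu-3 libraries were alike, while wox5-1 replicate 2 was more than 2-fold above the other wox5-1 libraries and Col-0 spread over more than 4-fold (log2 difference -1.89, SE 0.43, limma adjusted p = 0.006496). The regulator BZIP63 was 8.85, 5.46 and 5.28 FPKM in seu-3 and 33.8, 55.2 and 19.6 FPKM in wox5-1 (log2 difference -1.94, SE 0.34, limma adjusted p = 0.00234). The list summed to 514, 479 and 481 FPKM in seu-3, 734, 1299 and 602 in wox5-1 and 667, 1293 and 1914 in Col-0.

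The largest single differences reached 4 log2 units. OSM34 (AT4G11650), an osmotin of stress responses, was 19.1, 14.1 and 19.6 FPKM in seu-3, 0, 0.132 and 0 FPKM in wox5-1 and 0, 0.146 and 0 FPKM in Col-0, so it exceeded 1 FPKM in seu-3 alone (log2 difference 4.29, SE 0.17, limma adjusted p = 7.62e-05). AZI1 (AT4G12470), which primes systemic defence responses, differed in the opposite direction, at 0.374, 0 and 0 FPKM in seu-3 and 16.7, 17.5 and 17.9 in wox5-1 (log2 difference -3.89, SE 0.17, limma adjusted p = 7.62e-05). Col-0 lay between the mutants for AZI1, at 3.13, 0.921 and 5.31 FPKM. AT2G03980, a GDSL-type lipase, was 21.02, 19.97 and 29.2 FPKM in seu-3 and 0.247, 0.9196 and 1.17 FPKM in wox5-1 (log2 difference 4.0, SE 0.24, limma adjusted p = 0.000142). AT4G37950, of the rhamnogalacturonate lyase family, was 18.18, 16.4 and 20.6 FPKM in seu-3 and 0.163, 0.6498 and 0.499 FPKM in wox5-1 (log2 difference 3.95, SE 0.17, limma adjusted p = 7.62e-05). For both enzymes Col-0 lay between the mutants, at 9.74, 6.37 and 6.95 FPKM for AT2G03980 and 9.48, 7.48 and 7.03 FPKM for AT4G37950. OSM34, AT2G03980 and AT4G37950 reached the threshold only through seu-3, and AZI1 only through wox5-1. Their directions are given as a description.

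HEI10, a RING protein of meiotic crossovers, was 0.315, 0.785 and 0.294 FPKM in seu-3 and 16.5, 12.9 and 13.6 FPKM in wox5-1, with Col-0 near wox5-1 at 10.7, 9.58 and 10.2 FPKM (log2 difference -3.21, SE 0.18, limma adjusted p = 0.000128). HEI10 likewise reached the threshold only through wox5-1. Of the 12 largest rises, AT5G04120 and AT5G26270 had log2 differences of 4.31 and 4.15. AT3G15450 had the most negative difference of the genes plotted (-4.28), and ranged from 175 to 893 FPKM in wox5-1 and from 111 to 1095 FPKM in Col-0. GSTF7, a glutathione transferase, ranged from 2.102 to 51.6 FPKM in seu-3 and varied most within seu-3 among the 12 rises. The plastid gene ATCG00070 was listed at 0 in 2 seu-3 and 2 Col-0 libraries, and its call did not hold without seu-3 replicate 2 or 3 or wox5-1 replicate 1, or with all 9 libraries in the fit.

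**Figure D5:**
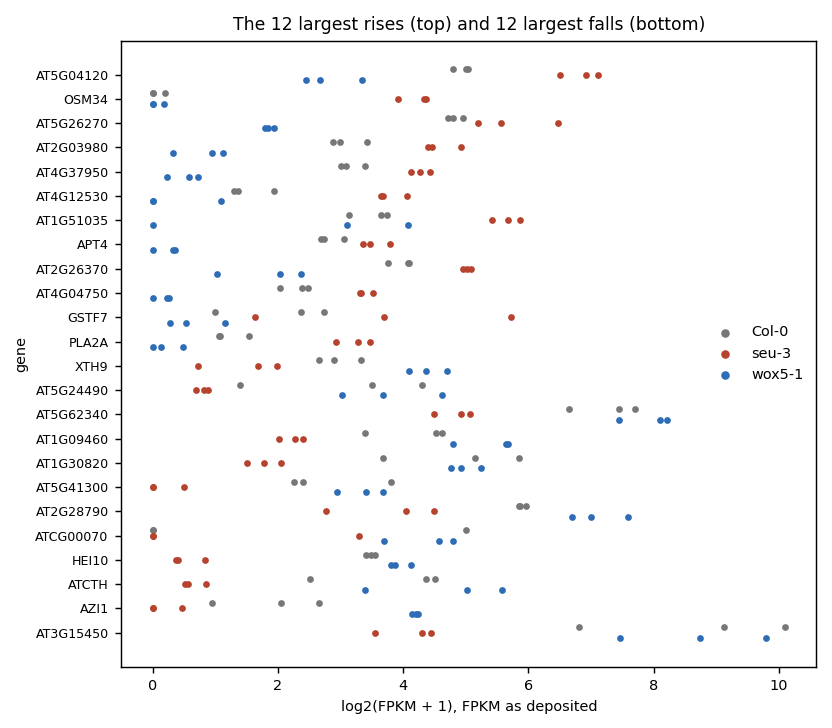
Log2(FPKM + 1) of the 12 largest rises (upper rows) and 12 largest falls (lower rows) in seu-3 against wox5-1, with 1 point per library and Col-0 drawn above seu-3 and wox5-1. The seu-3 and wox5-1 points do not overlap because the rule that chose the 24 genes required it, and OSM34 is near 0 in Col-0 and wox5-1.

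Markers of other tissues were checked in the same libraries. Summed over 10 leaf markers the level was 68.1, 62.9 and 53.4 FPKM in seu-3, 34.3, 35.3 and 104 in wox5-1 and 39.2, 52.5 and 55.4 in Col-0. Rubisco small subunit RBCS1A was 6.096, 3.798 and 4.73 FPKM in seu-3 and 4.93, 1.75 and 28.6 FPKM in wox5-1, highest in wox5-1 replicate 3. Summed over 8 pollen markers the level was 2.87, 4.36 and 3.53 FPKM in seu-3 and 13.2, 7.82 and 82.1 in wox5-1. The pollen arabinogalactan protein AGP23 was listed at 0 in the 3 seu-3 and 3 Col-0 libraries and was 3.34, 1.43 and 19.7 FPKM in wox5-1. Of the 6 tested pollen markers 3 were lower in seu-3, 1 without any single seu-3 library and 0 without wox5-1 replicate 3, where these 3 lay below the filter and were not tested. These 3 thus reached the threshold only through wox5-1 replicate 3. The filter bears on their direction, which is given as a description. Without that library 4792 genes were higher and 4864 lower in seu-3, against 5236 and 5375 with it, and the counts of the mitosis, replication, ribosomal, aquaporin and cellulose lists stayed within 1 gene of those above.

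The summed FPKM lay between 794809 and 839181 per library, and a depth of roughly 7.7 to 14.3 M fragments follows from the smallest steps between values, an approximation because FPKM are not counts. Across genes, which are not independent replicates, libraries of 1 genotype correlated at 0.978 to 0.986 on the log scale and seu-3 with wox5-1 libraries at 0.844 to 0.934.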

How the data were processed

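RNA sequencing libraries of seu-3 and wox5-1 root tips, 3 of each, were compared, with 3 Col-0 libraries shown beside them and kept out of the main fit. The deposited values are FPKM computed by the authors, and per the submitters' processing notes Bowtie, Cufflinks and the TAIR10 build were used. Their versions, options and strandedness are not given in the sources used here. Genes were tested when their mean over the 6 libraries was 1 FPKM or more. Libraries were scaled by median-ratio factors, 0.863 to 0.938 for seu-3 and 1.10 to 1.13 for wox5-1, and log2(FPKM + 1) was fitted by limma 3.58.1 (R 4.3.3) with a trend in the variance prior and Benjamini-Hochberg adjustment, calls being made at an adjusted p below 0.05. The script was tested on simulated data with the spread of these libraries and 200 changed genes. It recovered 0% of changes of 0.5 log2 units, 63% of those of 1 and 94.5% of those of 2. Far fewer genes changed there than were called here, so these rates do not carry over to the comparison. FPKM are not counts, so no count test was run. Only SEU and WOX5 were also tested with an exact permutation test.

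The TAIR10.1 annotation gave names, overlaps and upstream windows, and 32826 of 33560 identifiers had an entry there. Named genes are SEU, WOX5, the 12 largest rises and 12 largest falls among called genes whose groups do not overlap, and per list up to 4 called members per direction by smallest p, or the 2 largest differences where none was called. Part of these are printed, and list members beyond the rule were named after their values were seen. The members and lists were chosen with earlier results of these data known. Alternatives were a fit of all 9 libraries, no scaling, quantile normalization, a mean of at least 5 FPKM, no filter, a pseudocount of 0.1 FPKM, no variance trend, a replicate block and leaving out each library. Sorted AGL42:GFP cells are not analysed here. Python 3.11.15 with pandas 2.3.3, numpy 2.4.6 and matplotlib 3.10.9 made summaries and figures.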

Additional observations from a re-analysis of the deposited data

How the results depend on the processing

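Genes higher in seu-3 numbered 3243 without scaling, against 5236, and those higher by at least 1 log2 unit 922, against 1659. With a mean of at least 5 FPKM the latter numbered 1066 and the list members lower in seu-3 93, against 140, where fewer genes are tested (11923). The cause of the change without scaling was not tested. Leaving out 1 library gave 4399 to 5108 genes higher and 4457 to 5218 lower, 1334 to 1899 higher by at least 1 log2 unit and 1665 to 2527 lower by as much. Replicate numbers were treated as names without pairing, since the deviations of same-numbered libraries correlated at 0.05, -0.25 and 0.20. With a replicate block 4872 genes were higher and 4959 lower. Among the genes named by the rule, none reversed its direction under the alternatives in which it was tested, and a gene below an alternative's filter has no value there. FPKM carry no exact depth, so the counting error of weakly expressed genes such as WOX5 is unknown.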

Other observations

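AZI1, APT4 and AT4G12530, all among the 24 largest differences, lie on chromosome 4 between 7375855 and 7428563 (TAIR10.1). APT4, an adenine phosphoribosyltransferase, was 9.29, 10.1 and 12.8 FPKM in seu-3 and 0, 0.245 and 0.274 FPKM in wox5-1, AT4G12530, of the lipid transfer protein superfamily, was 11.5, 11.8 and 15.7 FPKM in seu-3 and 0, 0 and 1.13 FPKM in wox5-1, and both were higher in seu-3 while AZI1 was lower. Col-0 held 7.32, 5.46 and 5.65 FPKM of APT4 and 2.83, 1.57 and 1.45 FPKM of AT4G12530. This proximity was noticed after the values were seen and was not tested. APT4 and AT4G12530 reached the 1 FPKM threshold only through seu-3, and AZI1 only through wox5-1.

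AGL42, a MADS-box gene of the quiescent centre, lay below the 1 FPKM threshold and was 2.81, 1.39 and 0.663 FPKM in seu-3 and 0, 0.483 and 0.487 FPKM in wox5-1, with 1.54, 0.939 and 1.43 FPKM in Col-0.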
